A study of Mus musculus with 6 samples.

Results

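The mitosis genes described here are 45 genes whose products build the spindle, attach and separate the chromosomes and divide the cell. They were taken by name, all 45 were found among the 43629 genes of the count table, and all 45 passed the filter on low counts that left 16829 genes for testing. Their RNA was measured by poly(A) RNA sequencing of primary keratinocytes, the epithelial cells of the epidermis, which were isolated from the epidermis of 3 control and 3 Dnmt1Δ/Δep mice at postnatal day 3 and kept in culture, for 5 days by the sample labels and the methods, although a figure legend of the study gives a shorter time. All 6 mice were labelled female, each library came from 1 mouse, and the mice were of a mixed C57BL/6J and 129SV background. In Dnmt1Δ/Δep mice, a Cre recombinase driven by the Keratin 5 promoter deletes floxed Dnmt1, the gene of the maintenance DNA methyltransferase, in keratinocytes, so that other cell types carried along in a culture keep the gene. The study names as controls floxed mice without Cre, with 1 or both alleles floxed, and its survival plot also counts mice with Cre and 1 floxed allele. Which of these each control library came from is not given in the sources used here.

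A dividing cell enters mitosis when cyclin-dependent kinase 1 binds its cyclins. Kinetochores then couple the condensed chromosomes to spindle microtubules, a checkpoint holds the anaphase-promoting complex (APC/C) until every chromosome is attached, and motors and bundling proteins pull the chromosomes apart and set the cleavage plane. Most of these genes are transcribed in G2 and mitosis, under the DREAM and MuvB complexes with B-Myb and FoxM1, which reach their promoters through an element called the cell cycle homology region (CHR), often beside CCAAT boxes bound by NF-Y. In the epidermis, mitosis takes place mainly in the basal layer, and low-calcium medium keeps cultured keratinocytes in a basal, dividing state.

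Promoters of 6 members are shown as examples, picked to differ in the size of the change and in the elements around the start site. Spc25 had the lowest p of all members, Cdc20 and Top2a were also lower in Dnmt1Δ/Δep keratinocytes, Nuf2 was lower with no match to either element, and Ect2 and Pttg1 were among the members with the smallest differences. The Pttg1 window lies wholly within the gene in the GENCODE annotation, so it holds no bases before that gene's outermost start. Each sequence is from RefSeq and runs 5′ to 3′ on the strand of the gene, from 250 bases before the annotated start site to 50 bases after it, and capitals mark the CHR (TTTGAA or TTCGAA) and the CCAAT box on either strand.
Spc25 promoter (GRCm38.p6, chr2:69206164-69206463, - strand): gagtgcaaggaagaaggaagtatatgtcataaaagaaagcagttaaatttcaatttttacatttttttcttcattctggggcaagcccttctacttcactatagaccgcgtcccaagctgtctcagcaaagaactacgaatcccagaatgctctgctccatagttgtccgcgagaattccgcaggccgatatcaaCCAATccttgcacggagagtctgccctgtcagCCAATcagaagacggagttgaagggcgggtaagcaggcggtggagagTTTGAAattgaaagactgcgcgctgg
Cdc20 promoter (GRCm38.p6, chr4:118437294-118437593, - strand): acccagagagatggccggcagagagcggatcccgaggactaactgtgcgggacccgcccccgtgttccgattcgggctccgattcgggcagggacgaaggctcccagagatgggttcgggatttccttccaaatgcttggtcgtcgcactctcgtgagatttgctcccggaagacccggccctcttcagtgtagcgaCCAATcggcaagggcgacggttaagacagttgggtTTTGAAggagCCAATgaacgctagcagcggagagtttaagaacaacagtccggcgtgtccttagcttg
Top2a promoter (GRCm38.p6, chr11:99024140-99024439, - strand): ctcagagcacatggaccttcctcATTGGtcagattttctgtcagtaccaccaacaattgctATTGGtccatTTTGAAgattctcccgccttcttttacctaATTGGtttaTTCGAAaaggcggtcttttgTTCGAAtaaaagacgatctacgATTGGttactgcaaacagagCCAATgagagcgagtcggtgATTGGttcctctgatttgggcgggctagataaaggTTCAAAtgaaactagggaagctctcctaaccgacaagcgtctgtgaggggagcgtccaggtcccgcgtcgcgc
Nuf2 promoter (GRCm38.p6, chr1:169531415-169531714, - strand): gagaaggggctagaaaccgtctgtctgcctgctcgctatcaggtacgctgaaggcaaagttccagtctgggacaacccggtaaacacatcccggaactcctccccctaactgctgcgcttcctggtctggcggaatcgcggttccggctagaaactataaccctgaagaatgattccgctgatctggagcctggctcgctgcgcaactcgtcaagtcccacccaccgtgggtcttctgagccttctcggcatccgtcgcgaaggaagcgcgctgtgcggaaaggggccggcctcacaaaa
Ect2 promoter (GRCm38.p6, chr3:27153829-27154128, - strand): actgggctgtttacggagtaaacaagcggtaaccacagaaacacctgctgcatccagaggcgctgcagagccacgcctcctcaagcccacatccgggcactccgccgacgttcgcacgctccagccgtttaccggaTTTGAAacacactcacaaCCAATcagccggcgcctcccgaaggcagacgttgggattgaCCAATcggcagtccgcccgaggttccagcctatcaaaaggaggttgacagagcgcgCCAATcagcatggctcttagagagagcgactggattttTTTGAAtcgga
Pttg1 promoter (GRCm38.p6, chr11:43425932-43426231, - strand): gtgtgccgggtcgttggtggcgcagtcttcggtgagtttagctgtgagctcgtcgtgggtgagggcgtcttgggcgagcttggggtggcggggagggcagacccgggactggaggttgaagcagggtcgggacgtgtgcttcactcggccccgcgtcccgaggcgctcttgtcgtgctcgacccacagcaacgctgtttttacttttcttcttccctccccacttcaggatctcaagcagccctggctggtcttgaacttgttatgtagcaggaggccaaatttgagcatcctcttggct

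Of the 45 members, 38 had an entry in the promoter table, and those without one were Aurkb, Ccna2, Foxm1, Incenp, Kif20a, Smc4 and Tpx2. TTTGAA, on either strand, was in 30 of the 38 promoters (78.9%), against 18.1% of 27025 promoters of the same length, and TTCGAA was in 3 (7.89%, against 1.55%). At least 1 CCAAT box was in 29 (76.3%, against 37.9%), and 2 or more were in 19 (50%, against 12.1%). A CHR and a CCAAT box occurred together in 27 member promoters (71.1%, against 7.69%). The letters GGCGGGA, a form of the E2F site, were in 9 (23.7%, against 11.5%). The 42 CHR matches began between 188 bases before and 41 bases after the start site, and 22 of them lay after it. The 67 CCAAT matches had their median at 71 bases before it. The member promoters held a median of 23.5 CpG dinucleotides, the sites at which DNMT1 can maintain methylation, with a range of 2 (Kif2c) to 34. All promoters held a median of 7. Whether these sites are methylated was not measured here. The windows of Kif2c, Cdca8, Cdca3, Kif4 and Pttg1 lie wholly within the gene in the GENCODE annotation, so they hold no bases before its outermost start. Matches are a description of letters and were not tested as binding sites.

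**Figure D1:**
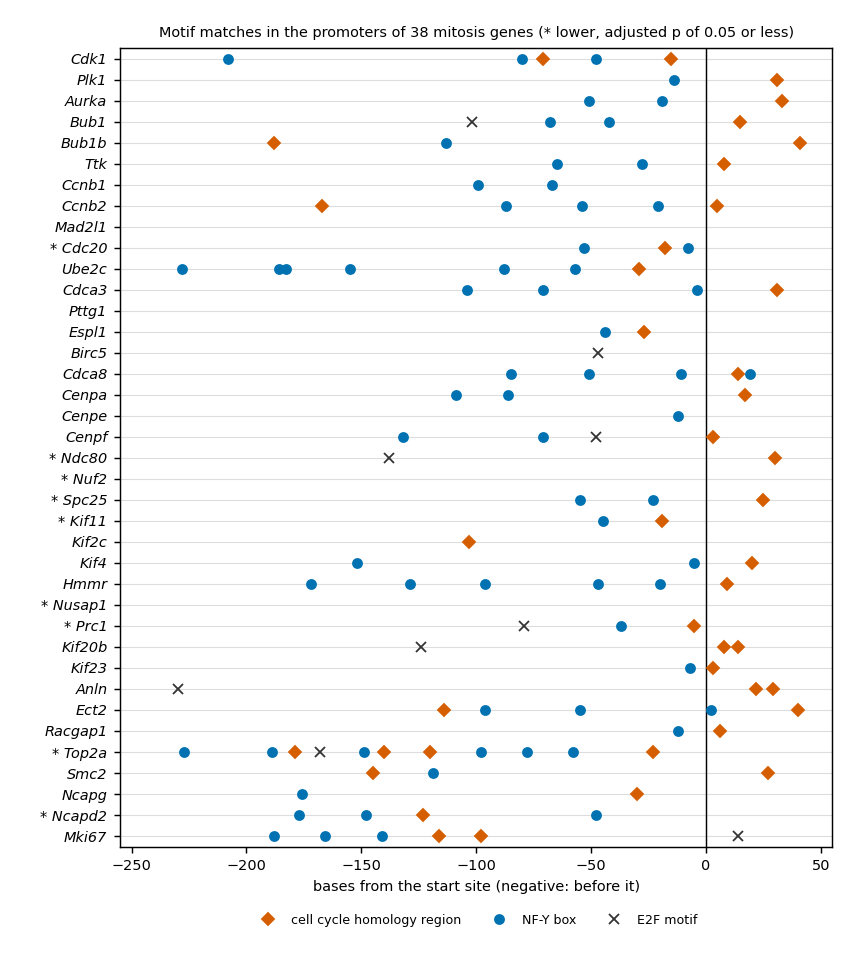
Position of each motif match (points) in the promoters of the 38 members found in the RefSeq table, in bases from the start site, with members ordered by role and an asterisk on those lower in Dnmt1Δ/Δep keratinocytes at an adjusted p of 0.05. Of the CHR matches, 22 of 42 lie after the start site, and CCAAT matches have their median at 71 bases before it. Mad2l1, Pttg1, Birc5, Nuf2 and Nusap1 have neither, and the Pttg1 window lies wholly within the gene in the GENCODE annotation.

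The 2 elements were found in members that passed the test and in members that did not pass it. Of the 9 members with a promoter entry that were lower at the adjusted p described below, 7 had a CHR and 6 a CCAAT box, and Nuf2 and Nusap1 had neither. Of the other 29 with an entry, 24 had a CHR and 23 a CCAAT box. Top2a had 4 CHR and 6 CCAAT matches, and Ect2, with nearly equal levels in both groups, had 2 and 3.

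Dnmt1 itself (chr9:20907209-20959888, GRCm38) stood at 394, 379 and 324 CPM in control replicates 1, 2 and 3 and at 49.7, 54.3 and 50.7 CPM in the Dnmt1Δ/Δep replicates. CPM are counts scaled to a common library total after TMM normalization. An adjusted p is that of the quasi-likelihood test in edgeR, adjusted over all genes tested by the method of Benjamini and Hochberg. The groups did not overlap, and the log2 fold change was −2.83 ± 0.11 (SE, n = 3 against 3, edgeR, adjusted p = 8.1e-05), in the direction of the labels in all 6 libraries. The libraries held between 53433121 and 115526598 counts on genes. Libraries with the same replicate number were sequenced on the same lane. Replicate 3 stood apart for some members: Cenpe, Cenpf, Kif20b, Smc2, Smc4 and Mki67 were highest in the replicate 3 library of both groups, and their values are given apart from the others. Marker genes of other cells were also present, with a summed level of 207 to 546 CPM in controls and 659 to 887 CPM in Dnmt1Δ/Δep cultures for 6 melanocyte markers, and of 24.4 to 58.5 and 95.4 to 135 CPM for 7 leukocyte markers, nearly all of it S100a8, which stressed keratinocytes also express. Ptprc, Cd3e and Lyz2, other leukocyte markers, were at or below 0.201 CPM in every library. The sums were 5.29 to 17.1 and 14.5 to 21.7 CPM for 4 endothelial markers and 12.2 to 28 and 12 to 58.8 CPM for 6 fibroblast markers. S100a8, Itgam and Csf1r of the leukocyte list and Pecam1 and Cdh5 of the endothelial list were higher (edgeR, adjusted p between 0.0075 and 0.047), although Csf1r did not pass with the replicate number as a block (0.053). Itgam, Csf1r and Cdh5 were at low levels, at or below 1.78, 2.42 and 5.82 CPM in every library. Kdr and Tek, the other endothelial markers, had log2 fold changes of −0.16 and 0.58 and did not pass (edgeR, adjusted p = 0.93 and 0.41). Of the melanocyte markers 0 passed without the block, and with it Dct, Pmel, Mlana and Tyrp1 were higher (edgeR, adjusted p between 0.026 and 0.049). Of the fibroblast markers 0 passed in either fit. No marker of melanocytes, fibroblasts or endothelium was at 0 in all libraries. The 6 basal keratinocyte markers summed to between 28800 and 32700 CPM in controls and between 21800 and 22200 CPM in Dnmt1Δ/Δep cultures. Krt5 and Krt14 carried most of this sum and were lower, as was Col17a1 (edgeR, adjusted p between 0.028 and 0.038), whereas Itga6, Itgb4 and Trp63 had log2 fold changes of 0.18, 0.17 and −0.26 and did not pass. The 7 markers of differentiated keratinocytes summed to 1170, 1460 and 1940 CPM in controls and 1500, 1200 and 858 CPM in Dnmt1Δ/Δep replicates 1, 2 and 3, so that the groups overlapped. None of the 6 that were tested passed (edgeR, 0 at the adjusted p, 2 higher and 3 lower at an unadjusted p of 0.05), and they went both ways, with Krt1 at −2.30 and Lor and Ivl at 1.70 and 1.61 on the log2 scale. The part of these cell types in the changes of the mitosis genes was not tested.

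Of the 45 mitosis genes, 10 were lower in Dnmt1Δ/Δep keratinocytes at an adjusted p of 0.05, against 1.66% of all genes tested, and each by less than 2-fold. The kinetochore gene Spc25, the spindle motor Kif11 and the microtubule protein Nusap1 were among these 10. The summed level of the 45 members was 7920, 7773 and 8798 CPM in control replicates 1, 2 and 3 and 6147, 6104 and 7209 CPM in the Dnmt1Δ/Δep replicates, so that every Dnmt1Δ/Δep library lay below every control library. Within the replicate pairs, the sum was 22.4%, 21.5% and 18.1% lower. In bulk RNA, fewer cells in mitosis and less of these transcripts per cell cannot be told apart.

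By the study's thresholds, an adjusted p of 0.05 and a 2-fold change, 0 of the 45 members were called lower and 0 higher in edgeR, where 0.392% of all genes tested were called lower and 6.03% higher. DESeq2 and limma-voom also gave 0, and at an unadjusted p of 0.05 edgeR gave 31 lower and 0 higher. By the adjusted p alone, 10 members (22.2%) were lower and 0 higher, against 1.66% and 7.71% of all genes tested. These 10 were Aurkb, Cdc20, Ndc80, Nuf2, Spc25, Kif11, Nusap1, Prc1, Top2a and Ncapd2. At the unadjusted p, the 31 lower members (68.9%) compare with 7.79% of all genes. The log2 fold change was below 0 in 44 of 45 members, against 50.1% of genes, and its median was −0.35, with 0.00 for all genes tested and −0.04 for the 9310 genes with a mean of at least 10 CPM. In 31 members, all Dnmt1Δ/Δep libraries lay below all control libraries, against 11.7% of genes. Of the genes with a mean of at least 10 CPM, 2.21% were lower and 4.52% higher at the adjusted p, and 10.4% lower at the unadjusted p. Among the same genes, 58.5% had a log2 fold change below 0 and 15.6% had all Dnmt1Δ/Δep libraries below all controls.

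With the replicate number as a block in edgeR, 22 members were lower at the adjusted p, against 3.58% of all genes and 5.11% of those with a mean of at least 10 CPM. The 22 held all 10 named above and 12 more: Bub1, Ccnb2, Cdca3, Cdca8, Cdk1, Kif4, Mad2l1, Ncapg, Plk1, Racgap1, Ttk and Ube2c. Over the 16 alternative settings, the adjusted p of these 12 lay between 0.011 (Kif4 and Racgap1) and 0.36 (Ncapg). The number of lower members without a block rested on single libraries. Leaving out control replicates 1, 2 and 3 in turn gave 10, 1 and 4 lower members, and leaving out Dnmt1Δ/Δep replicates 1, 2 and 3 gave 0, 1 and 2. The number of lower genes over the whole table also moved, from 279 to between 35 and 650. Of the 10 lower members, Spc25 passed in 5 of the 6 fits with 1 library left out, Cdc20, Kif11 and Prc1 in 2, Ndc80, Nuf2, Nusap1, Top2a and Ncapd2 in 1 and Aurkb in 0. The median log2 fold change of the members stayed between −0.32 and −0.43 when 1 library was left out.

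**Figure D2:**
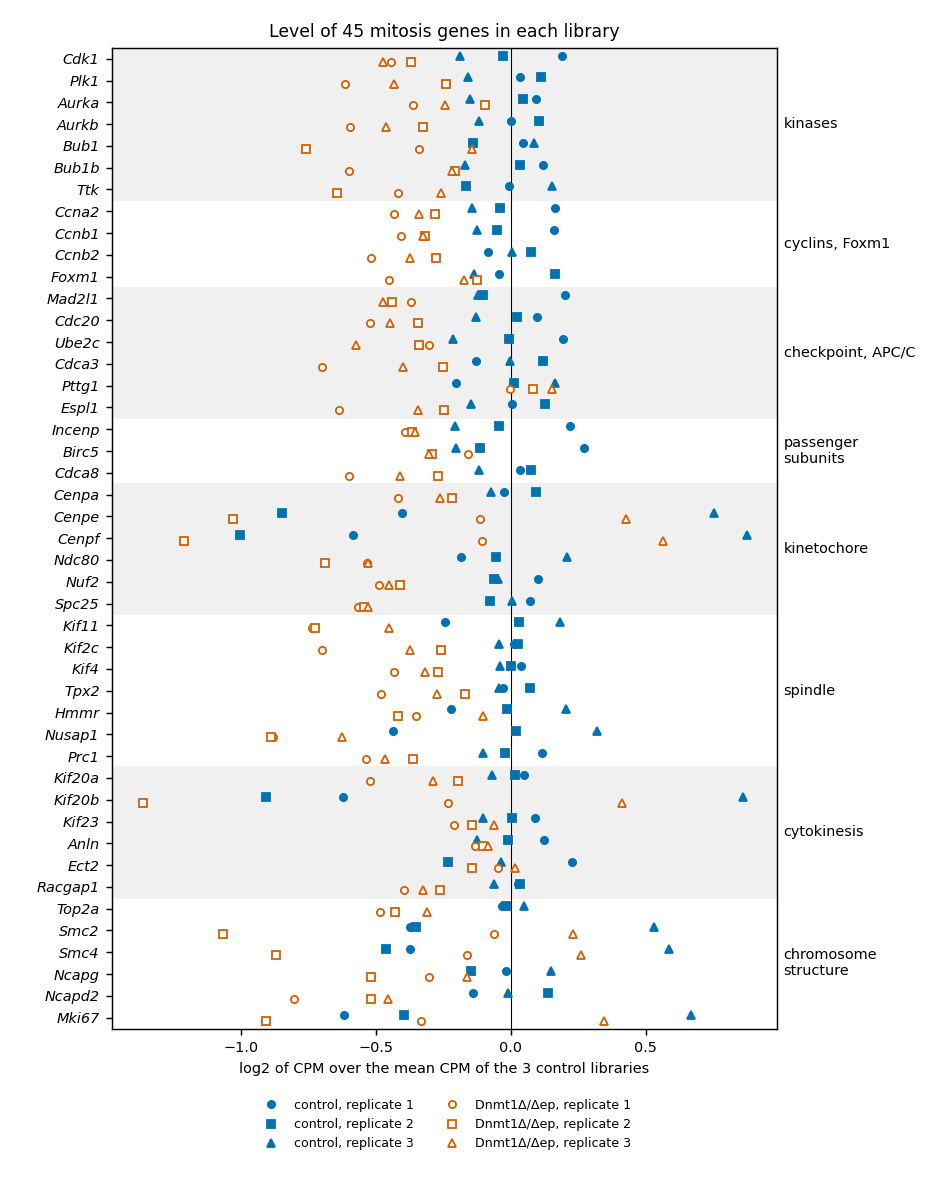
Level of each of the 45 members (rows, grouped by role) in each of the 6 libraries, as the log2 of its CPM over the mean of the 3 control libraries. For 31 members the open Dnmt1Δ/Δep points all lie left of the filled control points, and Cenpe, Cenpf, Kif20b, Smc2, Smc4 and Mki67 spread widely with replicate 3 (triangles) at the high end of both groups.

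Levels differed more than 10-fold between members. Per kilobase of exon, the control mean ran from 9.16 RPKM for the checkpoint gene Mad2l1 to 106 RPKM for Cdc20, the activator of the APC/C, with a median of 29.4 RPKM. Cdc20 was followed by Ccnb2 at 87.8 RPKM and Top2a at 87.3 RPKM. Exon lengths from GENCODE M21 set these levels, so a gene with a long unused exon has a lower value.

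The mitotic kinases had a median log2 fold change of −0.42, and 1 of the 7 was lower at the adjusted p without a block and 5 with it. Aurkb, the kinase of the chromosomal passenger complex that corrects faulty attachments (chr11:69045647-69051664), stood at 107, 115 and 98.4 CPM in control replicates 1, 2 and 3 and at 70.6, 85.2 and 77.6 CPM in the Dnmt1Δ/Δep replicates. All Dnmt1Δ/Δep libraries were below all controls. Its log2 fold change was −0.46 ± 0.11 (SE, edgeR, adjusted p = 0.044). Cdk1, the kinase that starts mitosis, was at 289, 248 and 222 CPM in controls and 186, 196 and 182 CPM in Dnmt1Δ/Δep keratinocytes, again without overlap. Its adjusted p in edgeR was 0.063, and 0.046 with the block. Plk1, a kinase of spindle assembly and mitotic exit, had a log2 fold change of −0.42 (edgeR, adjusted p = 0.087, and 0.046 with the block). The checkpoint kinases Ttk (Mps1), Bub1 and Bub1b (BubR1) had log2 fold changes of −0.43, −0.39 and −0.34, of which Ttk and Bub1 passed with the block (edgeR, adjusted p = 0.021 and 0.048) but not in the same fit without it (0.095 and 0.20). Aurka, the kinase of the spindle poles, had the smallest difference of the 7 at −0.23 (edgeR, adjusted p = 0.27), and its groups overlapped.

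Among the A and B cyclins and Foxm1, 0 of 4 were lower at the adjusted p in edgeR, 3 were at an unadjusted p of 0.05 and 1 was with the block, and the median was −0.35. Ccnb2, cyclin B2 (chr9:70407692-70421547), stood at 127, 142 and 135 CPM in controls and 94.1, 111 and 104 CPM in Dnmt1Δ/Δep keratinocytes. The groups did not overlap, and the log2 fold change was −0.38 ± 0.10 (SE, edgeR, adjusted p = 0.058, and 0.025 with the block). Ccna2, cyclin A2, and Ccnb1, cyclin B1, both had a log2 fold change of −0.35 (edgeR, adjusted p = 0.098 and 0.085). The value of Ccnb1 is uncertain because 51.9% of its longest transcript has near-identical copies elsewhere, among them the pseudogene Ccnb1-ps. Foxm1, the transcription factor that drives genes of G2 and mitosis, was at 162, 187 and 152 CPM in controls and 122, 153 and 148 CPM in Dnmt1Δ/Δep keratinocytes. The highest Dnmt1Δ/Δep library lay just above the lowest control, and the log2 fold change was −0.24 (edgeR, adjusted p = 0.31).

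Among the checkpoint and APC/C genes, 1 of 6 was lower at the adjusted p and 4 were with the block, and the median log2 fold change was −0.42. Cdc20, which the spindle checkpoint holds in check (chr4:118432901-118437352), stood at 212, 201 and 181 CPM in controls and 138, 156 and 145 CPM in Dnmt1Δ/Δep keratinocytes, with no overlap. Its log2 fold change was −0.44 ± 0.10 (SE, edgeR, adjusted p = 0.038). Mad2l1, the checkpoint protein that binds Cdc20, Ube2c, the ubiquitin-conjugating enzyme of the APC/C, and Cdca3, a trigger of mitotic entry, had log2 fold changes of −0.43, −0.40 and −0.44 and passed with the block (edgeR, adjusted p = 0.033, 0.027 and 0.023) but not in the same fit without it (0.062, 0.11 and 0.094). Espl1, separase, which cuts cohesin at anaphase, had −0.40 (edgeR, adjusted p = 0.11). Pttg1, securin, the inhibitor of separase, was the 1 member with a log2 fold change above 0. It stood at 16.9, 19.6 and 21.8 CPM in controls and 19.4, 20.6 and 21.6 CPM in Dnmt1Δ/Δep keratinocytes. These ranges overlapped and the log2 fold change was 0.08 ± 0.13 (SE, edgeR, adjusted p = 0.79).

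The passenger subunits that carry Aurkb had a median of −0.37, and 0 of 3 were lower without a block. Cdca8, borealin (chr4:124918465-124939311), was at 169, 174 and 152 CPM in controls and 109, 137 and 124 CPM in Dnmt1Δ/Δep keratinocytes. The groups did not overlap, and the log2 fold change was −0.42 ± 0.11 (SE, edgeR, adjusted p = 0.063, and 0.042 with the block). Incenp, the scaffold of the complex, had a log2 fold change of −0.37 (edgeR, adjusted p = 0.11). Birc5, survivin, had −0.25 (edgeR, adjusted p = 0.34) with overlapping groups.

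Of the 6 kinetochore members, 3 were lower at the adjusted p, and these were subunits of the NDC80 complex, which grips microtubule ends. Its other subunit, Spc24, is not among the 45 members. Spc24 stood at 68.7, 50 and 38.6 CPM in controls and 45.9, 37 and 31.8 CPM in Dnmt1Δ/Δep keratinocytes, with groups that overlapped and a log2 fold change of −0.46 (edgeR, adjusted p = 0.29, and 0.038 with the block). Spc25 (chr2:69193895-69206194) stood at 83.6, 75.4 and 79.8 CPM in controls and 53.7, 54.6 and 55.2 CPM in Dnmt1Δ/Δep keratinocytes. Both groups were tight and far apart, and the level fell by 31.5% (log2 fold change −0.55 ± 0.09, SE, edgeR, adjusted p = 0.010). Spc25 passed in 15 of 16 alternative settings, the exception being the fit without Dnmt1Δ/Δep replicate 1 (edgeR, adjusted p = 0.052), and its adjusted p over all of them lay between 1.5e-06 and 0.052. Ndc80 was at 56.0, 61.4 and 73.7 CPM in controls and 44.0, 39.5 and 44.1 CPM in Dnmt1Δ/Δep keratinocytes, with a log2 fold change of −0.58 ± 0.13 (SE, edgeR, adjusted p = 0.031), and 22.9% of its longest transcript has a near-identical copy elsewhere. Nuf2, the partner of Ndc80 in the complex, was at 79.0, 70.5 and 71.2 CPM in controls and 52.4, 55.3 and 53.8 CPM in Dnmt1Δ/Δep keratinocytes (log2 fold change −0.45 ± 0.09, SE, edgeR, adjusted p = 0.025). Neither Ndc80 nor Nuf2 overlapped between groups. Cenpa, the histone that marks the centromere, had a log2 fold change of −0.29 (edgeR, adjusted p = 0.11), with all Dnmt1Δ/Δep libraries below the controls.

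Cenpe and Cenpf, large proteins of the outer kinetochore, had differences of −0.12 ± 0.48 and −0.08 ± 0.57 on the log2 scale (SE, edgeR, adjusted p = 0.93 and 0.97). Cenpe stood at 104, 76.3 and 232 CPM in control replicates 1, 2 and 3 and at 127, 67.3 and 185 CPM in the Dnmt1Δ/Δep replicates. Cenpf stood at 115, 85.9 and 316 CPM in controls and 160, 74.4 and 255 CPM in Dnmt1Δ/Δep keratinocytes. Both were highest in replicate 3 and lowest in replicate 2 of each group, and the groups overlapped throughout.

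The spindle genes held the largest changes of all members. Nusap1, which binds and stabilises spindle microtubules (chr2:119618298-119651244), stood at 88.1, 121 and 149 CPM in controls and 64.8, 64.4 and 77.4 CPM in Dnmt1Δ/Δep keratinocytes. The controls were spread but lay above all Dnmt1Δ/Δep libraries, and the level fell by 42.3% (log2 fold change −0.79 ± 0.19, SE, edgeR, adjusted p = 0.045). Kif11, the Eg5 motor that pushes the spindle poles apart (chr19:37376403-37421859), was at 166, 201 and 223 CPM in controls and 118, 119 and 144 CPM in Dnmt1Δ/Δep keratinocytes. It too did not overlap, with a log2 fold change of −0.63 ± 0.14 (SE, edgeR, adjusted p = 0.034). Prc1, which bundles antiparallel microtubules of the midzone (chr7:80294450-80316259), stood at 340, 309 and 292 CPM in controls and 216, 244 and 227 CPM in Dnmt1Δ/Δep keratinocytes. Its groups were apart, with a log2 fold change of −0.45 ± 0.10 (SE, edgeR, adjusted p = 0.034). Kif4, a chromosome-bound motor, had a log2 fold change of −0.33 (edgeR, adjusted p = 0.058, and 0.048 with the block). Kif2c (MCAK, a microtubule depolymerase), Tpx2 (the activator of Aurka) and Hmmr (a microtubule-binding protein of the spindle poles) had log2 fold changes of −0.43, −0.31 and −0.28 (edgeR, adjusted p between 0.080 and 0.28). Over the 7 spindle genes, 3 were lower at the adjusted p and the median was −0.43, or −0.55 to −0.32 with 1 library left out.

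Cytokinesis genes had a median of −0.18, with 0 of 6 lower without a block. This was the role median nearest to 0, except that chromosome structure lay nearer without control replicate 3 (−0.04 against −0.18) or without Dnmt1Δ/Δep replicate 2 (−0.14 against −0.17). Racgap1, the GTPase-activating subunit of centralspindlin (chr15:99620496-99651656), was at 221, 222 and 208 CPM in controls and 165, 181 and 173 CPM in Dnmt1Δ/Δep keratinocytes. The groups did not overlap, and the log2 fold change was −0.33 ± 0.09 (SE, edgeR, adjusted p = 0.060, and 0.045 with the block). Near-identical copies of 17.8% of its longest transcript lie elsewhere. Its motor partner Kif23 had a log2 fold change of −0.13 (edgeR, adjusted p = 0.47). Anln, anillin, the scaffold of the contractile ring, stood at 492, 449 and 415 CPM in controls and 412, 421 and 426 CPM in Dnmt1Δ/Δep keratinocytes. Ect2, which activates RhoA at the cleavage plane, stood at 132, 96 and 110 CPM in controls and 109, 102 and 114 CPM in Dnmt1Δ/Δep keratinocytes. For both, control replicate 1 was the highest library and the remaining libraries overlapped, with log2 fold changes of −0.11 ± 0.10 and −0.06 ± 0.13 (SE, edgeR, adjusted p = 0.60 and 0.86). Kif20a (MKLP2, which moves the passenger complex to the midzone) had −0.33 (edgeR, adjusted p = 0.12), and 29.3% of its exon length overlaps Cdc23 on the other strand. Ube2c (22.8%), Kif4 (15.1%), Ncapg (13.4%), Ccna2 (12.5%) and Prc1 (11.1%) likewise share exon sequence with genes on the opposite strand. Whether the counting used strand is not given in the sources used here. Kif20b, a motor of late cytokinesis, had −0.22 ± 0.56 (SE, edgeR, adjusted p = 0.88).

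For chromosome structure, the median was −0.26 and 2 of 6 members were lower. The median rested on single libraries, with −0.04 without control replicate 3, −0.14 without Dnmt1Δ/Δep replicate 2 and −0.48 without Dnmt1Δ/Δep replicate 3. Ncapd2, a subunit of condensin I (chr6:125168007-125191701), stood at 244, 296 and 267 CPM in controls and 154, 188 and 196 CPM in Dnmt1Δ/Δep keratinocytes. The groups did not overlap, and the level fell by 33.3% (log2 fold change −0.58 ± 0.13, SE, edgeR, adjusted p = 0.031). Top2a, the topoisomerase that untangles sister chromatids, was at 769, 777 and 815 CPM in controls and 563, 584 and 635 CPM in Dnmt1Δ/Δep keratinocytes, with a log2 fold change of −0.41 ± 0.09 (SE, edgeR, adjusted p = 0.040). It had the highest mean CPM of all members in controls, and its groups lay apart. Ncapg, another condensin I subunit, had −0.32 (edgeR, adjusted p = 0.18, and 0.038 with the block). The condensin ATPases Smc2 and Smc4 and the proliferation marker Mki67 (Ki-67), which coats mitotic chromosomes, had log2 fold changes of −0.20, −0.18 and −0.21 (edgeR, adjusted p between 0.82 and 0.84), with SEs of 0.37, 0.36 and 0.41. Mki67 stood at 378, 441 and 922 CPM in controls and 461, 309 and 738 CPM in Dnmt1Δ/Δep keratinocytes. Its replicate 3 library was the highest of each group, and the groups overlapped.

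**Figure D3:**
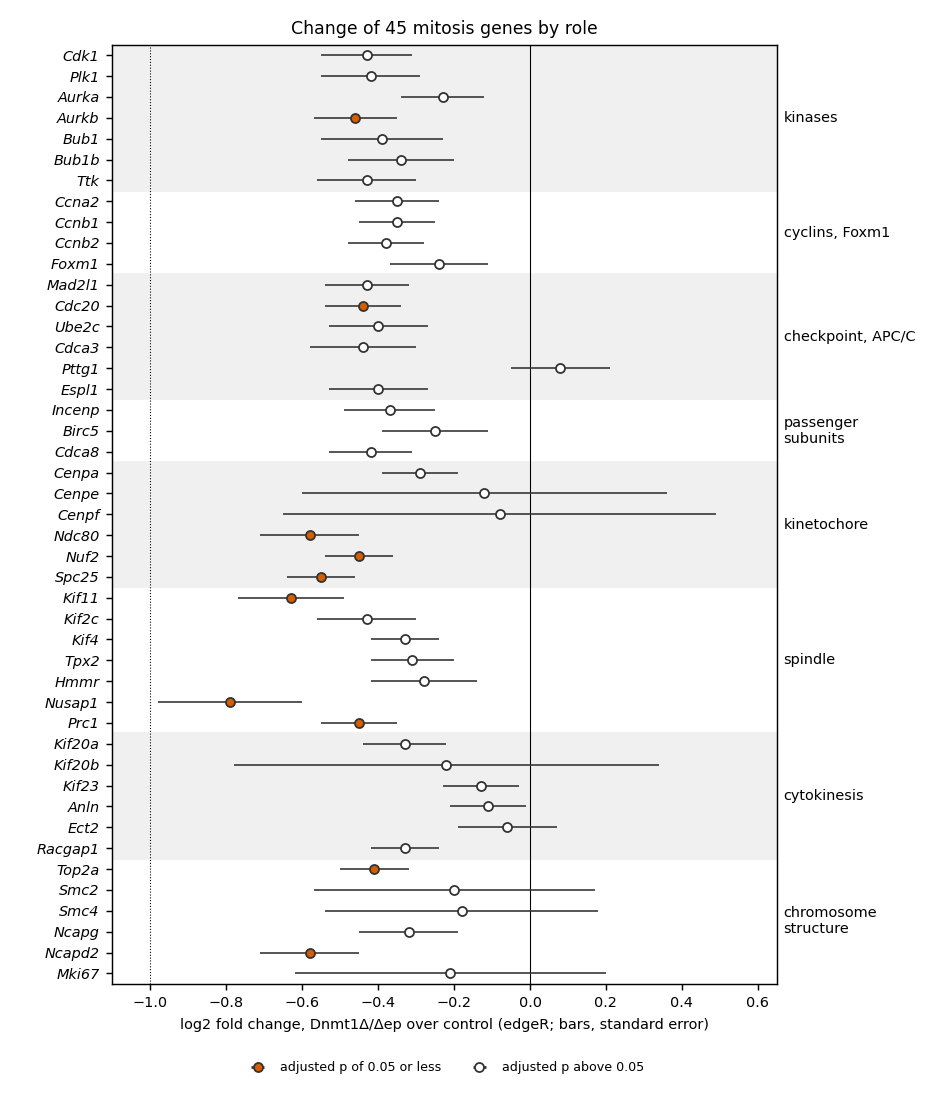
Log2 fold change of each member, Dnmt1Δ/Δep over control, with its standard error from edgeR, grouped by role. Filled points mark the 10 members lower at an adjusted p of 0.05, all between −0.41 and −0.79 and none past the dotted line of a 2-fold decrease, and the cytokinesis genes Anln, Ect2 and Kif23 lie nearest to 0 together with Pttg1, Cenpe and Cenpf.

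The size and order of the change were compared between the replicate pairs, each a Dnmt1Δ/Δep library against the control of the same number, as log2 ratios of CPM with no test. The median over the 45 members was −0.45, −0.34 and −0.31 in pairs 1, 2 and 3, and that of all genes tested was 0.01, 0.00 and 0.02. In 35 members the ratio was below 0 in all 3 pairs, against 25.4% of all genes and 32.6% of those with a mean of at least 10 CPM. In pair 1, 38 members were below 0, and the 7 above it were Pttg1 and the 6 members that were high in replicate 3. In pairs 2 and 3, 43 and 42 were below 0, and those above it were Pttg1 and Ect2 in pair 2 and Anln, Ect2 and Kif23 in pair 3, none by more than 0.09.

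The order of the members was alike in pairs 2 and 3 and not in pair 1. Across the 45 members, Spearman's rho was 0.74 between pairs 2 and 3, 0.07 between pairs 1 and 2 and 0.13 between pairs 1 and 3, and without the 6 members high in replicate 3 it was 0.82, 0.20 and 0.28. Genes are not independent replicates, and the members share libraries, lanes and depth. The lowest ratios in pair 1 were those of Bub1b (−0.72) and Kif2c (−0.71), and in pairs 2 and 3 the lowest was Nusap1 (−0.90 and −0.95). Ncapd2 was among the 5 lowest in each pair.

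By role, pair 1 had its lowest medians in the passenger subunits (−0.61), the kinases (−0.60) and the checkpoint genes (−0.57), and its highest in chromosome structure (−0.04). In pair 2, chromosome structure was lowest (−0.46), and the kinases had −0.36. In pair 3, the kinetochore genes were lowest (−0.37) and the kinases had −0.27. The spindle genes were at −0.47, −0.34 and −0.33, and cytokinesis genes were nearer to 0 than the 45 members together in each pair (−0.29, −0.18 and −0.09). The summed level of the spindle genes was 29.1%, 24.8% and 25.1% lower in pairs 1, 2 and 3, and that of the kinases 33.0%, 21.4% and 15% lower. The kinetochore genes summed to 4.32%, 20.8% and 22.1% lower and those of chromosome structure to 9.24%, 28.4% and 20.9% lower, and both groups hold members that were high in replicate 3.

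**Figure D4:**
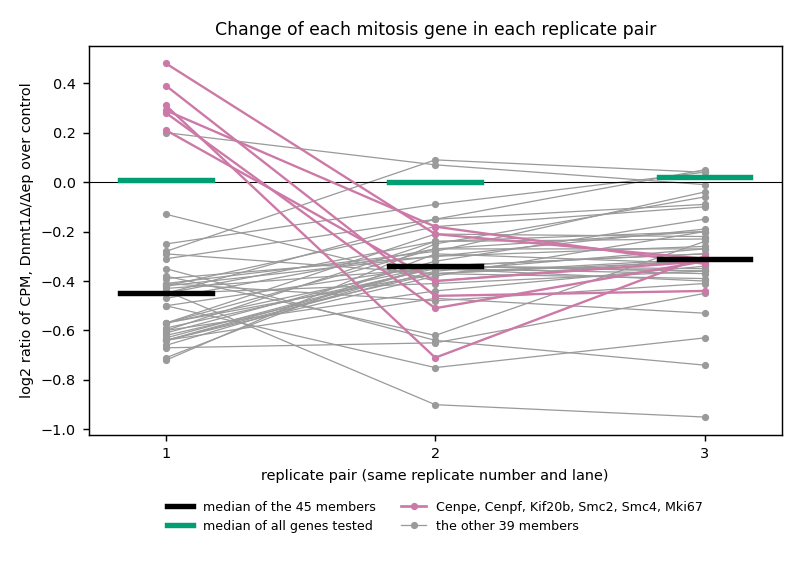
Log2 ratio of CPM, Dnmt1Δ/Δep over control, for each of the 45 members (lines) in the 3 replicate pairs, with the median of the members (black bars) and of all genes tested (green bars). The black bars sit at −0.45, −0.34 and −0.31, and the 6 members high in replicate 3 lie above 0 in pair 1 and at −0.18 or lower in the other pairs.

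The 6 members that stood apart shared a pattern across libraries rather than between groups. They were chosen after their values were seen. In both groups their log2 level in replicate 3 exceeded the mean of replicates 1 and 2, by 0.89 to 1.67 in controls and by 0.78 to 1.22 in Dnmt1Δ/Δep keratinocytes. Averaged over the groups, the lowest of the 6 was Smc2 at 0.85 and the next member outside them was Nusap1 at 0.40. The other 39 members had medians of −0.10 and 0.05. The longest transcripts of the 6 had a median GC content of 41.6% and a median length of 6737 bases, and those of the other 39 had 47.4% and 3236 bases. Across the 45 members, Pearson's r between GC content and this difference was −0.55 in controls and −0.48 in Dnmt1Δ/Δep keratinocytes, and across the 16698 tested genes with a GC value it was −0.15 and −0.11, or −0.24 and −0.19 across the 9286 of them with a mean of at least 10 CPM. The replicate 3 libraries shared a lane, and the part of the lane in this pattern was not tested. Without the 6, the median log2 fold change of the remaining members was −0.39. With offsets for GC content in edgeR, 21 members were lower at the adjusted p, and 26 were with the offsets and the replicate block together. The genes called lower over the whole table rose with them, from 279 to 490 and 828.

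**Figure D5:**
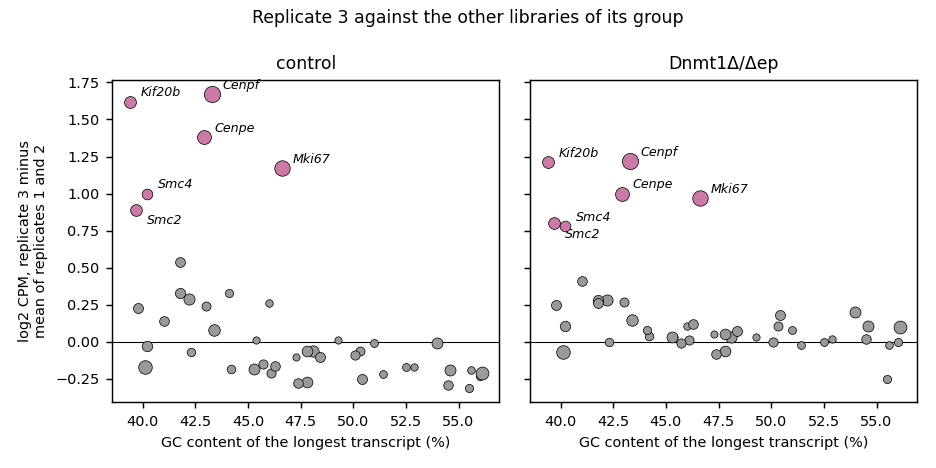
Difference of the log2 CPM in replicate 3 from the mean of replicates 1 and 2 of the same group, against the GC content of the longest transcript, for the 45 members in controls (left) and Dnmt1Δ/Δep keratinocytes (right), with point area rising with transcript length. The 6 named members lie between 0.78 and 1.67, and all others at 0.54 or lower.

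Other genes of the same processes were read from the same edgeR fit, from lists that hold none of the 45 members. Of 94 further mitosis genes, 18 were lower at the adjusted p and 0 higher, 28 were lower with the replicate block, and the median log2 fold change was −0.28. Over all genes tested, 1.66% were lower and 7.71% higher, 3.58% were lower with the block, and the median was 0.00. Leaving out control replicates 1, 2 and 3 in turn gave 20, 0 and 10 lower, and leaving out Dnmt1Δ/Δep replicates 1, 2 and 3 gave 0, 3 and 1. Among 32 kinetochore genes 6 were lower, among 24 spindle and cytokinesis genes 6, among 11 condensin and cohesin genes 3, and among 27 genes of the APC/C, the checkpoint and mitotic entry 3. With the block these counts were 11, 9, 4 and 4. Named by the lowest p, these were led by Melk, a kinase of proliferating cells (99.5, 96.1 and 89.9 CPM in controls, 64.3, 71.3 and 68.8 CPM in Dnmt1Δ/Δep keratinocytes), with a log2 fold change of −0.48 ± 0.09 (SE, edgeR, adjusted p = 0.020). The centromere gene Cenpu had −0.57, the chromosome motor Kif22 −0.60, the condensin subunit Ncaph −0.58, the mitotic kinase Pbk −0.52 and shugoshin, Sgo1, which protects centromeric cohesin, −0.44 (edgeR, adjusted p between 0.020 and 0.024). In each of these 6, all Dnmt1Δ/Δep libraries lay below all controls.

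Genes that act before mitosis were also lower in part. Of 25 genes of replication licensing and S phase, 4 were lower (Mcm4, Mcm6, Gins2 and Rrm1, with log2 fold changes between −0.47 and −0.59), 0 were higher, and all 25 had log2 fold changes below 0, with a median of −0.40. Over all genes tested, 1.66% were lower and 50.1% had values below 0, or 58.5% of those with a mean of at least 10 CPM. With the block 6 were lower, against 3.58% of all genes, and Mcm4 was not among them (edgeR, adjusted p = 0.051). The count with 1 library left out was 4 without control replicate 1, 6 without control replicate 3 and 0 without any of the others. Among 8 G1 cyclins and their kinases, 0 passed in either direction in edgeR, and with 1 library left out 0 were lower and 0 to 1 higher. At an unadjusted p of 0.05, 1 was lower and 0 higher, against 7.79% and 15.8% of all genes. Ccnd1 stood at 831, 417 and 300 CPM in controls and 795, 699 and 569 CPM in Dnmt1Δ/Δep keratinocytes, with overlapping groups. Of 22 regulators of the DREAM, MuvB and E2F families, 2 were lower and 0 higher, against 1.66% and 7.71% of all genes, and 4 were lower with the block, against 3.58%. Without control replicate 1, 3 were lower, and 1 was without any other single library. Tfdp2, a dimerization partner of E2F factors, stood at 48.6, 57.3 and 62.8 CPM in controls and 27.3, 29.6 and 33.9 CPM in Dnmt1Δ/Δep keratinocytes. The groups lay apart, with a log2 fold change of −0.89 ± 0.13 (SE, edgeR, adjusted p = 0.0080). The other was Rbbp4, a histone-binding subunit of MuvB (−0.36, edgeR, adjusted p = 0.041). Mybl2, B-Myb, had 0.08 (edgeR, adjusted p = 0.83).

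Inhibitors of cyclin-dependent kinases moved both ways. Of 15 such inhibitors and p53 targets, 3 were higher and 2 lower at the adjusted p, against 7.71% and 1.66% of all genes. With the block these were 3 and 4, against 10% and 3.58%, and with 1 library left out 2 to 4 and 0 to 3, the lower calls being 0 without control replicate 2 or any Dnmt1Δ/Δep replicate. Cdkn2a, which encodes p16INK4a and p19ARF, stood at 0.243, 0.164 and 0.0745 CPM in controls and 1.78, 1.61 and 1.31 CPM in Dnmt1Δ/Δep keratinocytes, which was low in both groups and without overlap. The log2 fold change was 3.22 ± 0.42 (SE, edgeR, adjusted p = 0.0044). Cdkn2b, p15INK4b, was at 5.65, 8.36 and 8.6 CPM in controls and 18.8, 21.5 and 17.2 CPM in Dnmt1Δ/Δep keratinocytes, with a log2 fold change of 1.35 ± 0.19 (SE, edgeR, adjusted p = 0.0069). The third, Cdkn1c (p57), had 0.85. Cdkn1b (p27) was lower, with 73.5, 82.1 and 90.3 CPM in controls and 56.5, 52.5 and 53.5 CPM in Dnmt1Δ/Δep keratinocytes (log2 fold change −0.60 ± 0.11, SE, edgeR, adjusted p = 0.015), as was Cdkn2c (p18INK4c) at −0.65. Cdkn1a (p21), the main p53 target among them, stood at 712, 994 and 924 CPM in controls and 873, 989 and 770 CPM in Dnmt1Δ/Δep keratinocytes. Its groups overlapped, with a log2 fold change of 0.00 ± 0.16 (SE, edgeR, adjusted p = 1.0).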

How the data were processed

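The 45 members and all lists of genes were chosen with earlier results of these data known. The authors trimmed reads (cutadapt), took out ribosomal reads (Bowtie2), mapped with STAR and ran htseq-count on reads with 1 position, and deposited the result as raw counts per gene. The labels name the mouse build GRCm38, whereas the methods name a human index for the gene alignment. The 5 entries that name no gene, with 8.73% to 12.9% of the counts, were left out. Of the per-library values, 18 columns (the authors' normalized counts and the counts on repeats) were not used, nor were the authors' own fold changes and p-values. Positions, symbols (97.3% of identifiers matched), exon lengths and GC content came from GENCODE M21 on GRCm38, and promoters from RefSeq.

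Counts were tested with edgeR 4.0.16 (quasi-likelihood test, TMM, filterByExpr with minimum counts of 10 and 15) in R 4.3.3, genotype only, with Benjamini-Hochberg adjustment over 16829 genes. Log2 ratios per pair used CPM with a prior count of 0.5. Near-identical copies were matches of at least 95% identity over 50 bases (blastn 2.17.0). The depth of 53433121 to 115526598 counts per library limited no member, since the lowest member stood at 16.9 CPM. The SE of a fold change was derived from the test statistic. The scripts were tested on simulated counts with known changes of at least 2-fold and no replicate effect. The simulation therefore does not cover changes as small as those of the members. Alternatives were other size factors, DESeq2 1.42.0, limma-voom 3.58.1, other filters, a replicate block, each library left out and, chosen after seeing the data, offsets for GC content. The replicate numbers come from the titles and match shared lanes in the file headers. Deviations from the group means correlated between same-numbered libraries at 0.40, 0.26 and 0.28, so the numbers pair the libraries, and the blocked value is given for named genes whose call it changes and for the counts of the lists it moves by over 1.5 times. Full values were given for Dnmt1, for the member with the lowest p in each role group, for the 5 largest and the 5 smallest differences, for up to 10 genes of the other lists by lowest p and for Cdkn1a, Cdkn2a and Cdkn2b, and other values were added after they were seen. Libraries were the replicates, 1 mouse each.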

Additional observations from a re-analysis of the deposited data

How the results depend on the processing

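The number of members lower at the adjusted p moved with the setting, from 10 to 22 with DESeq2, to 5 with a filter at a mean of 1 RPKM, to 22 with the replicate block, to 21 with GC offsets and to 26 with both. The number of lower genes over the whole table moved as well, from 279 to 773, 157, 603, 490 and 828 in the same order. For the 94 other mitosis genes it moved from 18 to 31 with DESeq2, 28 with the replicate block and 35 with the block and GC offsets. With 1 library left out, it was 0 to 10 for the members and 0 to 20 for the other mitosis genes, and the median log2 fold change of the members was −0.43 to −0.32. The role medians moved too, with −0.45 to −0.37 for kinases, −0.43 to −0.27 for cyclins and Foxm1 and −0.51 to −0.35 for checkpoint genes. They were −0.47 to −0.25 for passenger subunits, −0.53 to −0.33 for kinetochore genes and −0.25 to −0.16 for cytokinesis genes. The causes were not tested, except that leaving out a library lowers the number of samples. The block changed no call of a member other than the 12 named above. Other size factors gave 8 to 10 lower members and a median between −0.34 and −0.38, and limma-voom gave 9. Over the 16 settings, 0 members were called at 2-fold or called higher.

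Among the members, direction changed only in 8 that passed in no setting. Cenpf had a log2 fold change of 0.01 with limma-voom. With single libraries left out, the ranges were −0.55 to 0.70 for Cenpf, −0.50 to 0.48 for Cenpe, −0.69 to 0.53 for Kif20b, −0.48 to 0.16 for Smc2, −0.47 to 0.23 for Smc4, −0.59 to 0.29 for Mki67, −0.16 to 0.07 for Ect2 and −0.01 to 0.17 for Pttg1. With 3 libraries a group, the smallest p of an exact permutation test is 0.1, so single genes were tested only in the fit across all genes.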
